A study of Homo sapiens with 6 samples.

Results

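The cytosolic ribosomal protein genes were the rows of the deposited gene table whose names matched RPL or RPS followed by digits, with an optional final A, X or L, or were RPLP0, RPLP1, RPLP2 or RPSA. The rule found 81 of 58825 genes, 49 for the large subunit and 32 for the small subunit. Names that mark pseudogenes were left out. Of the 81 genes, 79 had a mean of at least 0.1 FPKM (read fragments per kilobase of gene length, relative to library size) and were tested. The muscle paralog RPL3L and the testis paralog RPL10L did not reach that level.

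RNA-seq of poly(A) RNA compared HK-2 cells, a human proximal tubule epithelial line immortalized with papillomavirus genes, without treatment (Control, n = 3) and after 25 μg/ml OX-LDL, oxidized low-density lipoprotein, for 48 h (n = 3). The study's methods describe serum starvation of the cells before OX-LDL, and its part in the results was not tested. The labels name no genetic change in either group. They do not state whether the replicates were separate cultures, and the p-values then measure the spread between these libraries, which may be technical. Library totals were 62561347 to 76797607 deposited counts. Of 13 proximal tubule markers, 4 were at 1 FPKM or more in both groups, and LRP2, the megalin receptor, was listed at 0. Of 5 epithelial markers, 4 reached that level, and CDH1, E-cadherin, was near 0, with a mean of 0.0968 FPKM in Control and of 0.106 in OX-LDL. Of the 11 markers of other cell types, the monocyte and macrophage lysosomal gene CD68 alone reached it, with a mean of 5.21 FPKM in Control and of 10.8 in OX-LDL, while the leukocyte marker PTPRC was at 0 and 0.0035 FPKM. Their part in the results was not tested.

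The ribosome is built from a large (60S) and a small (40S) subunit, each a scaffold of ribosomal RNA that carries 1 copy of most ribosomal proteins. Most of the messenger RNAs of these proteins begin with a C followed by a run of pyrimidines, the 5′ terminal oligopyrimidine (TOP) tract. The tract lets growth signals through mTORC1 and LARP1 set their translation together. In cultured epithelial lines such as HK-2, these mRNAs are among the most abundant.

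The start-site windows below are shown because that tract is the sequence feature the family shares. Each is 30 bases from RefSeq (GRCh38.p14), 10 before and 20 from the listed transcription start, read 5′ to 3′ on the gene's strand. Capitals mark the longest run of at least 5 C or T. Where RefSeq lists several starts, the window with the longest run was taken. The set comprises the members that passed the test and have an entry, followed by RPL4, RPL11, RPL39, RPLP1, RPLP2 and RPS6, which were chosen after their values had been seen.
RPS26, chr12:56041908-56041937, plus strand: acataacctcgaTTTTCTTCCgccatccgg
RPL19, chr17:39200313-39200342, plus strand: agCTCTTTCCTTTCgctgctgcggccgcag
RPS23, chr5:82278335-82278364, minus strand: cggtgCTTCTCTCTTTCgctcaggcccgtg
RPL10, chrX:154398367-154398396, plus strand: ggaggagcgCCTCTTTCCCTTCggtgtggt
RPL4, chr15:66504836-66504865, minus strand: cgggagtggtaagcaCTTCCTTTTCCTgtg
RPL11, chr1:23691796-23691825, plus strand: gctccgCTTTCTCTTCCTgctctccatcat
RPL39, chrX:119791611-119791640, minus strand: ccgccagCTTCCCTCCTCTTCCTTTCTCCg
RPLP1, chr15:69452808-69452837, plus strand: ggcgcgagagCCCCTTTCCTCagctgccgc
RPLP2, chr11:809957-809986, plus strand: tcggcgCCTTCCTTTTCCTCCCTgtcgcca
RPS6, chr9:19380217-19380246, minus strand: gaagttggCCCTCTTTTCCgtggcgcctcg
Of the 81 members, 64 had an entry. RPL37 and RPL5 were not among them. A C at the listed start followed by at least 4 further C or T was present at a listed start of 46 of the 64 members (71.9%), against 5.14% of the 27305 genes with an entry in RefSeq's start-site table. The run of RPS26 was 9 bases long and opened at base 3 of the transcript with T, so RPS26 did not meet that definition at its listed start. Other members did not meet it either, among them RPL4, whose run opened at base 6, and RPL19, with a T at the start shown. Of these, RPL19 was lower in OX-LDL. Over the whole 300-base promoter, on both strands, the ETS-type motif CCGGAAG was found in 35.9% of the members and 12.2% of those genes, and the YY1-type motif AAGATGG in 12.5% and 7.11%. The letters TATAAA were present in 9.38% of the members and 14% of those genes. The 46 tested members with a tract at a listed start had a median log2 fold change of -0.15 (OX-LDL over Control) and the 17 without one had -0.20. The values ran from -0.565 to 0.202 with a tract and from -0.454 to 1.058 without one, so members without it went both ways.

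RPS26 rose under OX-LDL and was the 1 member higher at an adjusted p-value under 0.05. Over all tested genes, 7.91% were called higher. The gene encodes a small subunit protein at the mRNA exit channel and is mutated in some patients with Diamond-Blackfan anaemia, a failure of red cell production. It lies at chr12:56041351-56044676 on GRCh38. Its level was 31.3, 35.2 and 31.4 FPKM in Control 1 to 3 and 72.9, 59.8 and 66.6 FPKM in OX-LDL 1 to 3. Every OX-LDL library was above every Control library, with the lowest OX-LDL value in OX-LDL 2. The fold change was 2.08 (log2 1.06, SE 0.09, adjusted p = 0.0018, edgeR quasi-likelihood test, Benjamini-Hochberg over 19510 genes). RPS26 passed the test in all 18 alternatives, which included leaving out each library, with log2 fold changes from 0.995 to 1.13. It was also the 1 member beyond a fold change of 2 with an unadjusted p under 0.05, a limit passed by 3.19% of all tested genes. No member was below a fold change of 0.5 with that p, against 3.16% of all genes.

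The rise of RPS26 changed its place among the small subunit mRNAs. On the log2 FPKM scale, its difference from the median of the other 31 small subunit genes was -1.44, -1.39 and -1.60 in Control 1 to 3, and -0.10, -0.52 and -0.27 in OX-LDL 1 to 3. It stayed below that median in all 6 libraries and came nearest to it in OX-LDL 1. The pseudogenes named after RPS26 held 2.47% as many counts as the parent in Control and 2.46% in OX-LDL. A gene on the opposite strand that overlaps it, AC034102, had at most 1 count in any library.

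**Figure D1:**
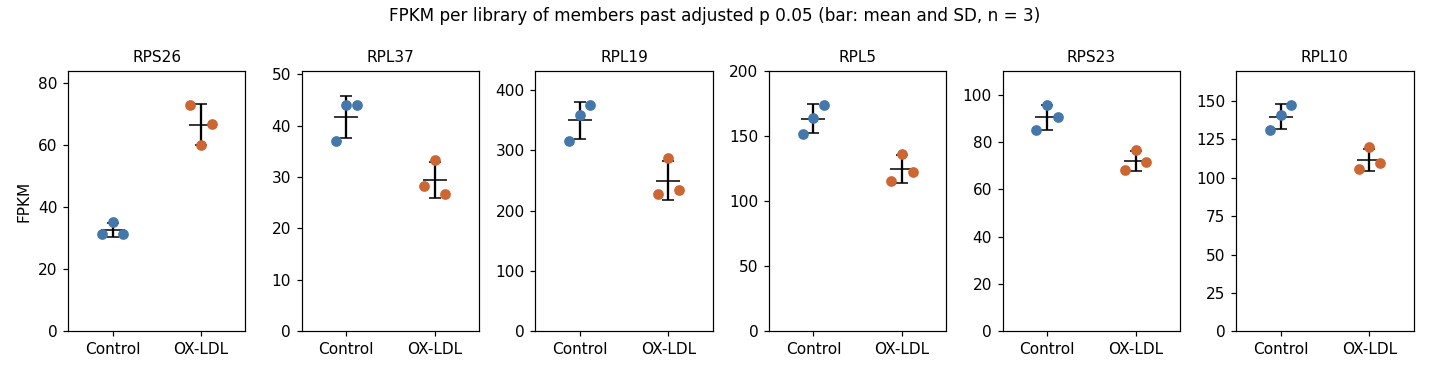
FPKM of RPS26, RPL37, RPL19, RPL5, RPS23 and RPL10, all past an adjusted p of 0.05, 1 point per library, with the mean and SD of each group (n = 3) as black bars; each panel has its own linear axis from 0. RPS26 rose from 31.3 to 35.2 FPKM in Control to 59.8 to 72.9 FPKM in OX-LDL, and the other genes shown sat lower in every OX-LDL library than in every Control library.

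Lower levels were called for 6 members, 7.59% of those tested, against 7.42% of all tested genes, so the share of calls was near that of the background. They included RPL37, RPL19, RPL5 and RPL10 of the large subunit and RPS23 of the small subunit. Their log2 fold changes ran from -0.47 to -0.29, which is a level 72.2% to 81.7% of Control, and none of the 6 had overlapping groups.

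RPL37 (chr5:40825262-40835222), a zinc-binding protein of the 60S subunit, had 37.0, 44.0 and 44.0 FPKM in Control and 28.2, 33.4 and 26.6 FPKM in OX-LDL (log2 fold change -0.47, SE 0.11, adjusted p = 0.033, edgeR). RPL19 (chr17:39200283-39204732), which takes part in a bridge between the subunits, had 315.9, 358.7 and 375.3 FPKM in Control and 228.3, 286.4 and 234.5 FPKM in OX-LDL (log2 fold change -0.45, SE 0.11, adjusted p = 0.037, edgeR). In both genes, OX-LDL 2 was the highest of the treated libraries.

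RPL5 (chr1:92831983-92841924), which with RPL11 carries 5S ribosomal RNA into the ribosome and can bind MDM2, had 151.9, 163.6 and 174.0 FPKM in Control and 115.4, 136.3 and 122.1 FPKM in OX-LDL (log2 fold change -0.36, SE 0.09, adjusted p = 0.038, edgeR). RPS23 (chr5:82273320-82278368), a protein of the decoding centre, had 85.0, 95.8 and 90.7 FPKM in Control and 68.2, 76.5 and 71.6 FPKM in OX-LDL (log2 fold change -0.30, SE 0.07, adjusted p = 0.040, edgeR). RPL10 (chrX:154389955-154409168), which joins the 60S subunit late in its assembly, had 131.2, 140.7 and 147.6 FPKM in Control and 105.5, 119.8 and 109.5 FPKM in OX-LDL (log2 fold change -0.29, SE 0.08, adjusted p = 0.046, edgeR). The counts assigned to RPL10 pseudogenes came to 15.5% of the parent's in Control, and with them added to it the log2 fold change was -0.28 with an adjusted p of 0.054 (edgeR). RPL5, RPL10 and RPS23 each overlap another gene in the table (DIPK1A, DNASE1L1 and ATG10), and no source used here says whether counting used strand, so shared reads could not be told apart.

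The 6 calls, though not the direction of the values, depended on single libraries. With 1 library left out, the log2 fold change ran from -0.572 to -0.406 for RPL37, from -0.564 to -0.386 for RPL19, from -0.426 to -0.297 for RPL5, from -0.347 to -0.246 for RPL10 and from -0.341 to -0.25 for RPS23. No member was called lower without Control 2, without Control 3, without OX-LDL 1 or without OX-LDL 3, and RPL37 alone was called without Control 1. Over all genes, the lower calls also went down in those fits, to 2.75%, 4.93%, 3.02%, 2.79% and 4.32% in that order. Without OX-LDL 2, 20 members (25.3%) were called lower, 14 of the large and 6 of the small subunit, where 7.53% of all genes were.

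**Figure D2:**
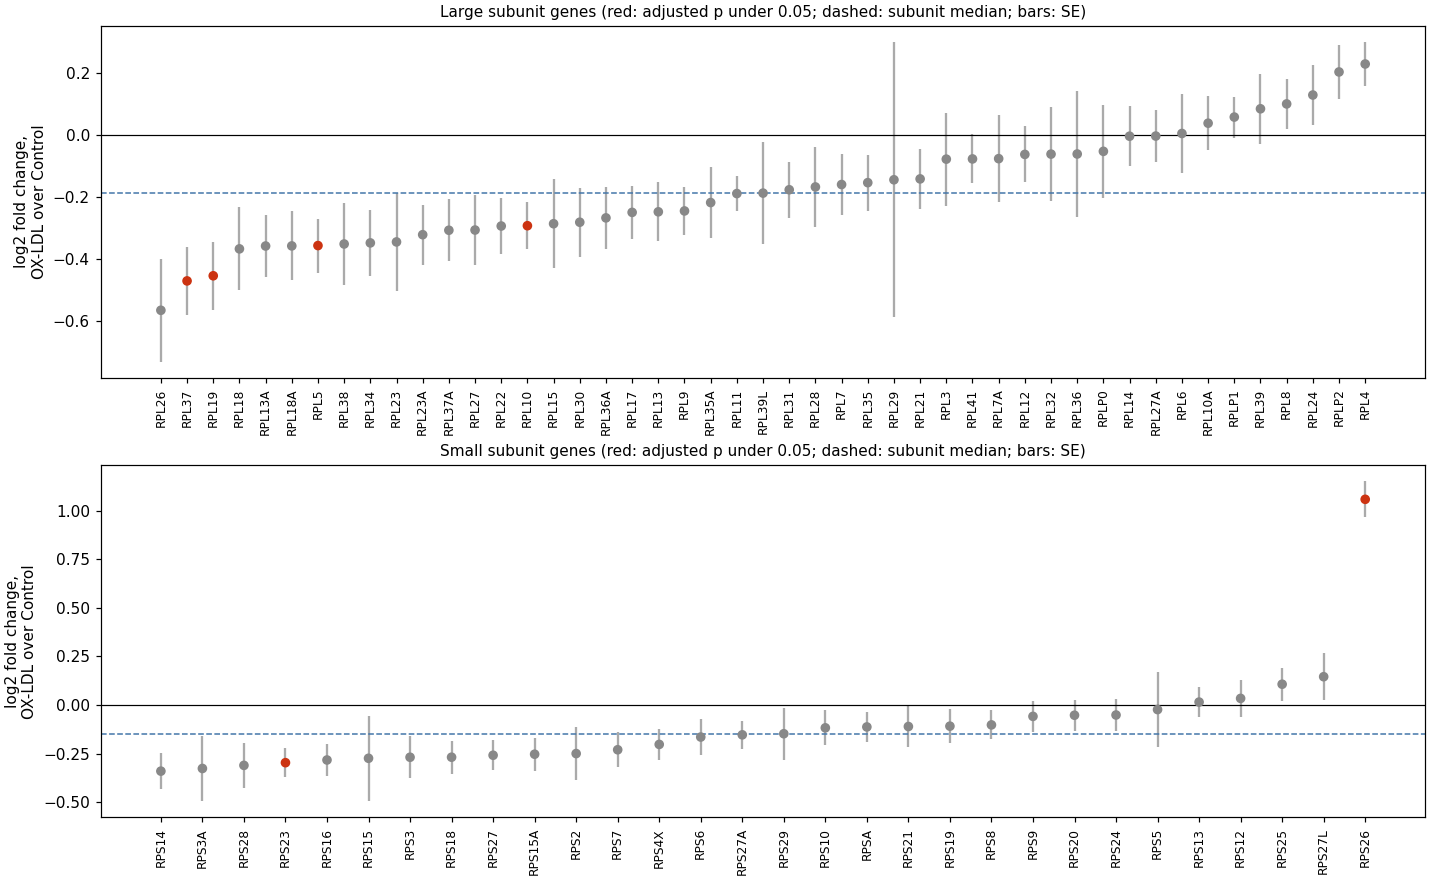
Log2 fold change (OX-LDL over Control) of tested large subunit (upper panel) and small subunit (lower panel) genes, each with its SE, ordered within the subunit; red points passed an adjusted p of 0.05 and the dashed line is the median of all tested genes of the subunit. Most points lie between -0.4 and 0, and RPS26 at 1.06 stands apart at the right end of the lower panel.

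Over all 79 tested members, those called included, most lay to the lower side. The log2 fold change was below 0 for 66 members and above 0 for 13, and the median was -0.17, an 11% lower level, where the median of all tested genes was -0.0043. The interquartile range of the members was -0.29 to -0.06, compared with -0.33 to 0.33 for all genes. The median level was 83.8 FPKM for the members and 2.19 FPKM for all tested genes. The part of level in this range and in the shares that follow was not tested. Apart from RPS26, no tested member had an absolute log2 fold change over 0.6. The groups did not overlap in the lower direction for 29 members (36.7%), against 20.5% of all genes, and in the higher direction for 2 tested members, RPS26 and RPL4, against 16.8%. An unadjusted p under 0.05 was reached by 31 members in the lower direction (39.2%, all genes 15.1%) and by 2 in the higher (all genes 15.3%). Of the 16 members with an adjusted p between 0.05 and 0.1, 15 were lower. The mRNAs of 1 library share its depth and scaling, so these counts are not of independent genes. In bulk RNA, fewer cells with these mRNAs and less of them per cell cannot be told apart.

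As a whole, the family took 4.11%, 4.35% and 4.57% of the summed FPKM in Control 1 to 3 and 3.65%, 4.14% and 3.63% in OX-LDL 1 to 3. OX-LDL 1 and 3 were below all Control libraries, whereas OX-LDL 2 was above Control 1, so the groups overlapped. The means were 4.34% ± 0.23 (SD, n = 3) and 3.81% ± 0.29 (SD, n = 3). These are shares of FPKM, which appears to use all annotated exons as gene length, and not shares of mRNA molecules. The difference of -0.54 percentage points moved between -0.70 and -0.42 when 1 library was left out. The spread within a group was shared across the family. In Control 3, 7 of the 79 genes were below their own Control mean, against 68 in Control 1 and 44 in Control 2. The numbers in OX-LDL 1 to 3 were 69, 45 and 68, so untreated Control 1 had as many as OX-LDL 3. The size of the difference was not alike in these libraries. The median log2 difference of the members from their Control mean was -0.085, -0.012 and 0.083 in Control 1 to 3. In OX-LDL 1 to 3 it was -0.251, -0.074 and -0.255.

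**Figure D3:**
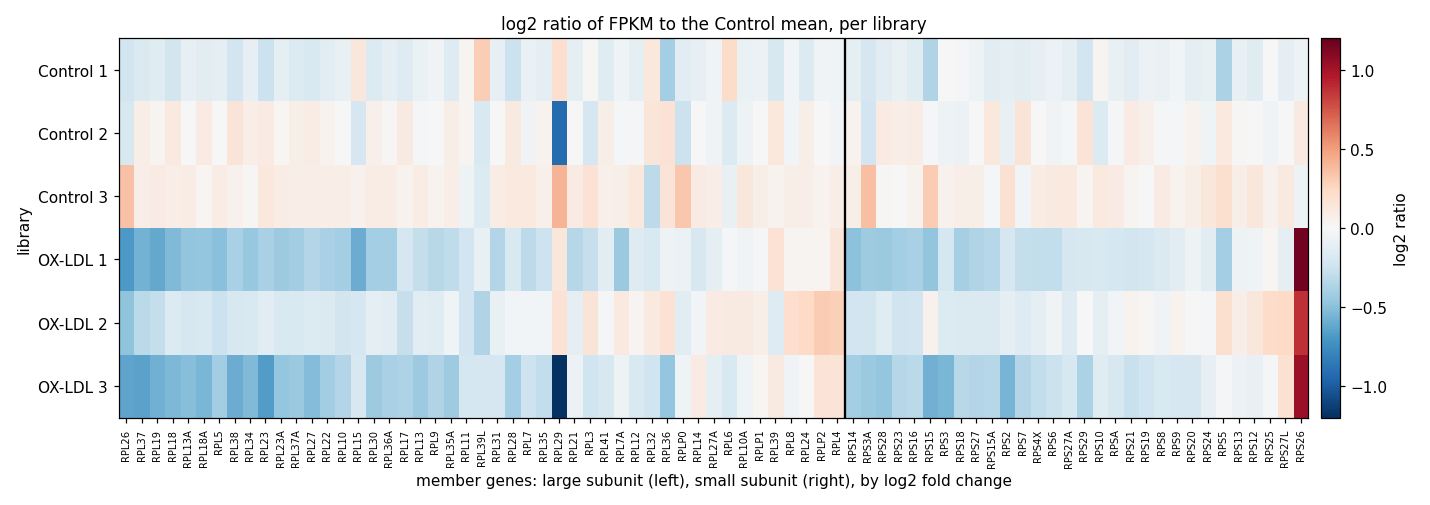
Log2 ratio of each member's FPKM to its Control mean, with the 6 libraries as rows and tested genes as columns, large subunit to the left of the line and small subunit to the right, ordered by log2 fold change. OX-LDL 1 and 3 are lower across most columns, OX-LDL 2 lies closer to Control, RPS26 is high in all 3 OX-LDL rows and RPL29 is low in Control 2 and OX-LDL 3.

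The medians of the large and small subunits lay close together. The median log2 fold change was -0.19 for the 47 large subunit genes tested, with 39 below 0, 4 called lower and none called higher. For the 32 small subunit genes it was -0.15, with 27 below 0, 2 called lower and 1 called higher. The shares called lower, 8.51% and 6.25%, were near the 7.42% of all genes. The log2 ratio of summed large to summed small subunit FPKM was 0.50, 0.50 and 0.47 in Control 1 to 3 and 0.48, 0.51 and 0.50 in OX-LDL 1 to 3. The groups overlapped, with means of 0.49 ± 0.02 and 0.50 ± 0.01 (SD, n = 3), and their difference of 0.0063 was smaller than the SD in either group.

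**Figure D4:**
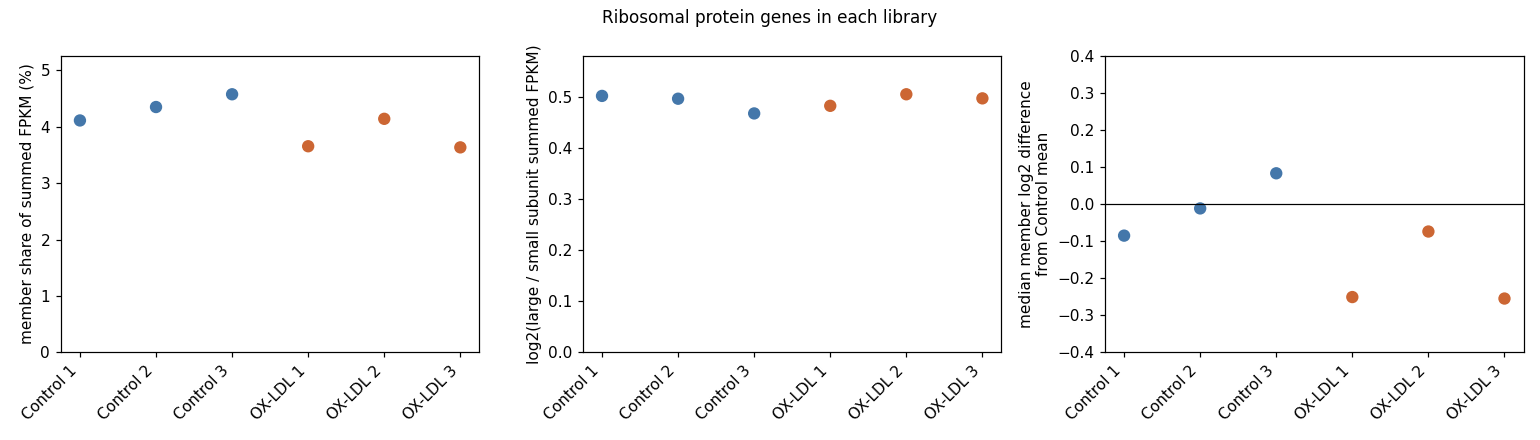
The family in each of the 6 libraries (blue Control, orange OX-LDL): its share of summed FPKM in percent, the log2 ratio of large to small subunit sums, and the median log2 difference of its genes from their Control mean. The share is 4.11% to 4.57% in Control and 3.63% to 4.14% in OX-LDL, and the ratio stays between 0.47 and 0.51 in all 6 libraries.

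The stalk of the large subunit, which recruits elongation factors, is made of RPLP0, RPLP1 and RPLP2. RPLP0 had 127.2, 116.5 and 174.5 FPKM in Control and 132.7, 127.3 and 134.4 FPKM in OX-LDL, a spread in Control that covered all treated values. RPLP1 had 66.1, 68.8 and 72.9 FPKM in Control and 68.5, 72.6 and 70.2 FPKM in OX-LDL. RPLP2 had 70.1, 71.6 and 74.3 FPKM in Control and 73.4, 88.7 and 80.8 FPKM in OX-LDL, with 1 OX-LDL library inside the Control range. The log2 fold changes were -0.05, 0.06 and 0.20, and none passed the test.

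Among the proteins that bind MDM2 when ribosome assembly fails, RPL11 had a log2 fold change of -0.19 (SE 0.06, adjusted p = 0.073, edgeR) and RPL23 one of -0.34 (SE 0.16, adjusted p = 0.19). RPL11 was lower in every OX-LDL library, at 223.3 to 225.4 FPKM, than in Control, at 250.5 to 266.5 FPKM. RPL26, which also binds p53 mRNA, had a log2 fold change of -0.56, the lowest of the members, with an SE of 0.17 and an adjusted p of 0.065 (edgeR). Without Control 3 it was -0.349 (adjusted p = 0.063, edgeR), above the -0.428 of RPL37 and the -0.40 of RPL19 in that fit. Control 3 stood out in RPL26, at 129.2 FPKM where Control 1 and 2 had 86.0 and 88.3, and OX-LDL had 62.9 to 72.3.

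Among the other genes mutated in Diamond-Blackfan anaemia, RPL5 is given above, and none of RPS19, RPS24, RPS10, RPS7, RPL35A, RPL11 and RPL26 passed the test. RPS19, the gene most often mutated in that disease, had a log2 fold change of -0.11, RPS24 of -0.05, RPS10 of -0.12, RPS7 of -0.23 and RPL35A of -0.22. RPS24, with 81.0 to 94.6 FPKM in the Control libraries and 78.2 to 85.6 in the OX-LDL libraries, had overlapping groups.

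Several other members are also known for roles beyond the ribosome's core work, and RPS6, RPSA, RPS27A, RPS3, RPL13A, RPL38 and RPL22 did not pass the test. RPS6, the substrate of S6 kinase, had 235.4, 240.0 and 266.1 FPKM in Control and 200.8, 239.9 and 206.4 FPKM in OX-LDL (log2 fold change -0.16). RPSA, also known as the laminin receptor precursor, was at -0.11 on the log2 scale, RPS27A, a fusion with ubiquitin, at -0.15, and RPS3, which also acts in DNA repair, at -0.27. RPL13A, which can leave the ribosome to silence inflammatory mRNAs, had 206.0, 220.8 and 234.4 FPKM in Control and 158.4, 191.2 and 154.8 FPKM in OX-LDL (log2 fold change -0.36, adjusted p = 0.056, edgeR). The groups of RPL13A did not overlap. RPL38, known for its role in translating Hox mRNAs, was at -0.35 and RPL22 at -0.29.

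Of the paralogs under the naming rule, RPL39L, RPS27L, RPL3L and RPL10L had lower levels than their counterparts. RPL39L, a testis-enriched copy of RPL39, had 23.2, 16.7 and 17.0 FPKM in Control and 17.8, 14.7 and 16.4 FPKM in OX-LDL. RPL39 itself had 85.6, 106.9 and 100.4 FPKM in Control and 110.3, 87.9 and 105.3 FPKM in OX-LDL. RPS27L, a p53-inducible copy of RPS27, had 2.96 to 3.43 FPKM in Control and 2.96 to 3.76 FPKM in OX-LDL, while RPS27 had 357.1 to 390.4 and 290.4 to 331.6 FPKM. RPL3 had 124.3 to 161.3 FPKM in Control and 118.1 to 159.3 FPKM in OX-LDL, and its paralog RPL3L stayed at or below 0.0552 FPKM. RPL10L had no count in any library. RPL7 and RPL7A, which share a name but not a sequence family, had log2 fold changes of -0.16 and -0.08, neither past the test.

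RPL36A had 66.9, 72.7 and 77.0 FPKM in Control and 54.6, 66.3 and 55.0 FPKM in OX-LDL (log2 fold change -0.27, adjusted p = 0.12, edgeR). With its read-through counts added, the log2 fold change was -0.065 (adjusted p = 0.72, edgeR), and without OX-LDL 2 it was -0.365 (adjusted p = 0.034, edgeR). The read-through gene RPL36A-HNRNPH2, which shares its exons, had 0 counts in all 3 Control libraries and 2356, 3586 and 3044 in OX-LDL. RPS10-NUDT3 had 5047 counts in Control 2 and 2869 in OX-LDL 2 but 44 to 145 in the other libraries, so reads of these overlapping genes may have been split differently between libraries. RPL29 was low in 1 library of each group, with 118.7, 54.7 and 137.0 FPKM in Control and 113.9, 116.5 and 45.4 FPKM in OX-LDL, and had the largest SE of the members, 0.44. Counts assigned to pseudogenes were above 20% of the parent's in Control for RPL9 (64.9%), RPL21 (36.7%), RPL7 (32.4%), RPS28 (26%), RPS7 (23.7%) and RPS2 (20.8%), and the levels of these 6 are uncertain to that extent.

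Levels on the FPKM scale ran from 3.32 for RPS27L to 494.8 for RPL41, around a median of 83.8 FPKM over all 6 libraries. RPL41, which encodes a very short basic peptide, had 465.5, 539.2 and 536.5 FPKM in Control and 471.1, 505.6 and 450.9 FPKM in OX-LDL. RPS12 and RPL7A came next, and RPL41 and RPS12 overlapped in both groups. The lowest tested after RPS27L was RPS29, at 4.11 to 5.38 FPKM in Control and 3.69 to 4.82 FPKM in OX-LDL. These FPKM values appear to use all annotated exons of a gene as its length, since the length implied by a gene's count and FPKM was 1.18 times the merged exon length (median of 12245 genes, interquartile range 1.179 to 1.183). For RPS29, those exons add up to 9845 bases and its principal transcript to 677. Per kilobase of the principal transcript, the order of the 79 members had a Spearman correlation of 0.87 with the FPKM order, a description across genes that share these libraries. RPS24 went from place 40 to place 2, and RPL12 took the first place. Fold changes between groups do not depend on that length.

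The members lie on 21 chromosomes, 12 of them on chromosome 19. Genes of snoRNAs, which guide the modification of ribosomal RNA, lie within the span and on the strand of 28 members. Their position in introns was not checked. The median log2 fold change was -0.19 for these and -0.17 for the 51 other tested members.

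Among proteins of the cytosolic ribosome outside the naming rule and near paralogs (among them FAU, RACK1, RPL36AL, RPL22L1, RPL7L1 and RPL26L1), 0 of 7 passed the test in either direction with edgeR, 0 reached an unadjusted p under 0.05 and the median log2 fold change was 0.03. RACK1, the kinase scaffold on the 40S subunit, was at -0.10. For mitochondrial ribosomal proteins, which make up the separate ribosome of that organelle, 6 of 78 fell and 5 rose, with a median of -0.07. Here and for the lists that follow, the share over all tested genes was 7.42% lower and 7.91% higher, and the mitochondrial list was near it. MRPL45 (log2 fold change -0.49) and MRPL33 (0.58) were among them.

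Of 19 translation factors and other genes listed as TOP mRNAs, 4 fell and none rose (all genes 7.42% lower and 7.91% higher). Their median log2 fold change was -0.11. The list came from prior knowledge, and the tracts of its genes were not looked up here. TPT1, NPM1 and HNRNPA1 are on it but are not translation factors. EEF1A1, the factor that brings aminoacyl-tRNA to the ribosome, fell from 1688 ± 42.4 to 1158 ± 115.0 FPKM (SD, n = 3, log2 fold change -0.51, adjusted p = 0.012, edgeR). TPT1 fell with a log2 fold change of -0.62, EIF4A2 with -0.47 and EIF3K with -0.28. Of 27 initiation factors outside the TOP list, 5 fell and 6 rose, among them EIF2S2 (-0.45), EIF4G2 (0.39) and EIF5 (0.87). EIF4A2 and EIF3K, which are also initiation factors and fell, were counted in the TOP list, so this balance depends on how the lists were split.

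Of the ribosome biogenesis factors, 5 of 44 (11.4%) were lower and 4 were higher, near the shares over all genes (7.42% and 7.91%), with a median of 0.01. NOB1, the nuclease that finishes 18S ribosomal RNA, had a log2 fold change of -0.37 and WDR12 of -0.41, whereas LTV1, a 40S assembly factor, had 0.51 and GNL3 had 0.40. In the RNA polymerase I machinery, which transcribes ribosomal DNA, 2 of 14 rose and none fell, with UBTF at 0.69 and POLR1E at 0.43. Of 15 known regulators of these genes and mRNAs, 3 fell and none rose. EIF4EBP1, a translation repressor controlled by mTORC1, went from 63.2 ± 2.91 to 28.9 ± 0.66 FPKM (SD, n = 3, log2 fold change -1.10, adjusted p = 0.00092, edgeR). LARP1, which binds TOP mRNAs, had a log2 fold change of -0.37 and SP1 one of -0.49.

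**Figure D5:**
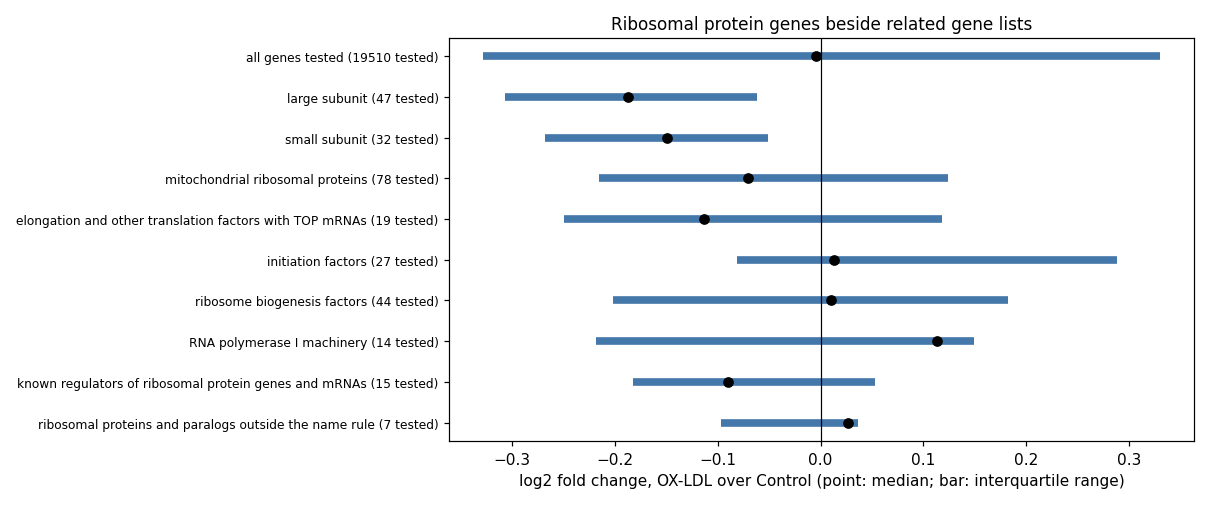
Median log2 fold change (point) and interquartile range (bar) for all 19510 genes tested, both ribosomal subunits and 7 related lists. The large subunit (-0.19) and small subunit (-0.15) have the lowest medians shown, and all genes centre near 0 with a wider bar.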

How the data were processed

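HK-2 poly(A) RNA was sequenced in 3 Control and 3 OX-LDL libraries, grouped by their labels. The authors deposited 1 table of estimated counts, whole numbers not scaled for depth, and of FPKM, scaled by the authors for length and library size, with counts of 0 listed at 0.0001 FPKM. The submitters' processing notes name cutadapt 1.9, HISAT2 2.0.4, StringTie 1.3.4d, edgeR, DESeq2 and GRCh38, without giving their roles. Genes at 4, 8 and 12 counts were 3.26, 2.95 and 2.13 times as frequent as neighbouring counts, which fits about 4 deposited counts per read pair, or 15640336 to 19199401 pairs per library.

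The counts were fitted with edgeR 4.0.16 in R 4.3.3 (TMM factors, glmQLFit and glmQLFTest, group as the only term) over the 19510 genes that averaged 0.1 FPKM or more. P-values were adjusted over all of them by Benjamini-Hochberg. The SE was derived from the log2 fold change and the square root of F. The fits were tested on simulated data. Alternatives were DESeq2 1.42.0, limma 3.58.1, other scalings, minimum levels, a replicate block, pseudogene or read-through counts added to the parent gene, counts divided by 4, removal of a length trend and leaving out each library.

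The members and lists were chosen with earlier results of these data known. Genes named in the text were up to 6 rises and 6 falls past the test in each subunit, the 3 highest and 3 lowest members, paralogs, members with known further roles and at most 4 genes of each list. RPL29, RPL21, RPL9, RPS28, RPS2, RPL4, RPL12, the markers and the read-through genes were additions made with their values in view. Libraries of the same group differed by 52.4 to 90.4 units of chi-square per gene, so none was a copy of another. For 39 of the 81 members, coordinates were identical in GENCODE release 29. Some genes that the rule or the lists cover are not reported here by name; all counts and medians include them.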

Additional observations from a re-analysis of the deposited data

How the results depend on the processing

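The rise of RPS26 held in all 18 alternatives, with adjusted p-values from 2.98e-17 to 0.0173. With a minimum of 1 FPKM, 2 members were higher (RPL4 joined RPS26). In place of 6, the members called lower numbered 13 with DESeq2, 11 with total counts only, 10 with limma at either pseudocount (0.1 or 1), 10 with a minimum of 1 FPKM, 2 with no minimum level and 1 with the replicate block, and from 0 to 20 when 1 library was left out. The cause of these differences was not tested. Over all genes, the lower calls went from 1448 to 2138 with DESeq2, to 782 with the replicate block and to 537 without Control 2. The median log2 fold change of the members stayed between -0.248 and -0.125 and the medians of both subunits stayed below 0 in every alternative. Correlations of same-numbered libraries' deviations from their group means were -0.109, -0.034 and -0.002. Those of differently numbered libraries ran from -0.099 to 0.139. The labels do not say whether libraries were paired, and these values cannot decide it. The replicate block moved no median beyond the spread between libraries. The difference in the log2 ratio of large to small subunit sums ranged from -0.0042 to 0.013 when 1 library was left out. Among 36 named members tested, none reversed its direction while called in either fit, and 14 values of members without a call changed sign. With 3 libraries a group, an exact permutation test of 1 value could not go below p = 0.10. Depth does not limit a member such as RPL19, which had at least 29675 counts in each library.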
